A study of Mus musculus with 4 samples.

Results

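The 9 genes described here, Gpam, Agpat2, Lpin1, Lpin2, Dgat1, Dgat2, Gpd1, Pck1 and Aqp7, encode steps of triglyceride synthesis and of glyceroneogenesis. Described are the TLE3 regions that the authors' lists assigned to 1 of these genes and placed within 50 kb of its transcription start site. The rule found 43 regions on 7 chromosomes, out of 69599 in the joined lists, of which 39602 lay within 50 kb of the start site of their nearest gene. The region nearest to the limit inside it belonged to Lpin2, 48.7 kb from its start site, and the nearest outside it belonged to Lpin1, 57.2 kb away. The Lpin2 region had 0 scaled reads in BAT, 26.5 in eWAT, 10.5 in iWAT and 1.30 in the input, and the Lpin1 region had 13.8, 72.4, 41.0 and 4.56 in the same order.

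The Groucho-family corepressor TLE3 was profiled by chromatin immunoprecipitation followed by sequencing (ChIP-seq) in adipocytes that had been differentiated in culture from the stromal-vascular cells of fat depots. There was 1 TLE3 library from brown fat (BAT, pooled from interscapular, cervical and axillary pads), 1 from epididymal white fat (eWAT), 1 from inguinal white fat (iWAT) and 1 input library, made without antibody from iWAT adipocytes. Donors of all groups were male NMRI mice aged 4 to 5 weeks, pooled from 10 to 15 animals, and the labels give no genetic change. All cultures received 30 nM insulin and 1 µM rosiglitazone, an agonist of the nuclear receptor PPARγ, were harvested on day 8, and were kept if over 50% differentiated. Cultures are thus mixtures, and the labels give no measured differentiation per library. RNA is not analysed here, so marker genes of the cell types could not be checked. With 1 library per depot there is no spread between replicates, and depot and library cannot be told apart. All intervals below are 95% intervals that cover counting error only.

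In fat cells, glycerol 3-phosphate is acylated by GPAM, the enzyme of the committed step, then by AGPAT2. Lipins remove the phosphate to give diacylglycerol, and DGAT1 or DGAT2 adds the last acyl chain. Glyceroneogenesis supplies glycerol 3-phosphate from small carbon precursors through PCK1, the cytosolic phosphoenolpyruvate carboxykinase, and GPD1, the cytosolic glycerol 3-phosphate dehydrogenase. AQP7 is the channel through which adipocytes release glycerol. Many of these genes are known targets of PPARγ, and TLE3 has no DNA-binding domain of its own and is recruited by transcription factors.

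The deposited value of a region is a read number that the authors brought to the same library total, called scaled reads here. All values were whole multiples of 1 read within 0.1 read, and 1 read was worth 2.77 scaled reads in BAT, 0.883 in eWAT, 0.526 in iWAT and 0.651 in the input. BAT values were therefore the coarsest, and a BAT value of 0 leaves room for 3 reads, or 8.30 scaled reads. Listed regions had 15 or more scaled reads in that depot's library and 10 or more times the input, limits that were read from the values. Because most regions had fewer scaled reads in BAT, log2 ratios are given after subtraction of the median log2 ratio of the strongest 25% of all regions. That median was −1.38 for BAT over eWAT, −1.42 for BAT over iWAT and 0.13 for eWAT over iWAT. The centring of the BAT ratios was uncertain, since the regions listed in all 3 depots gave −0.73 and −0.65 in place of −1.38 and −1.42. A region entered the set because it passed the limits in at least 1 library, so differences at regions listed in 1 depot were in part fixed by that choice.

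Regions annotated as promoters were found at Agpat2, Lpin1 and Pck1, and the 250 bases before the RefSeq start site of these genes are shown because each gene has a TLE3 region annotated to its promoter. Capitals mark a match to a motif searched on both strands.
Agpat2: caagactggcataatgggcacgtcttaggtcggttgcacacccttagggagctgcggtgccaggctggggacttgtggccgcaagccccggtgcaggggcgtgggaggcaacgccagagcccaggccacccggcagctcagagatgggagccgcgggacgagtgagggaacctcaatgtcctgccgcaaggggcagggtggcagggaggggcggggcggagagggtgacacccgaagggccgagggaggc
Lpin1: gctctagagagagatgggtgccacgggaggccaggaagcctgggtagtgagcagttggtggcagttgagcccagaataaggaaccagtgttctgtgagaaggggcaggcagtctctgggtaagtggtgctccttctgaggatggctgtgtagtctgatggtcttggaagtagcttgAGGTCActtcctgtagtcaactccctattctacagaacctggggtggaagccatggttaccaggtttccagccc
Pck1: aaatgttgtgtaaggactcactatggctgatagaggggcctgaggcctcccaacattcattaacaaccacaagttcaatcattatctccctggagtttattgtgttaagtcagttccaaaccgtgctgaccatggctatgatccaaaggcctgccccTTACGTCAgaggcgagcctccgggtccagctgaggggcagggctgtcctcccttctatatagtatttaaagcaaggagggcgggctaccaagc
These windows are from RefSeq on GRCm38.p6, at chr2:26604418-26604667 on the minus strand for Agpat2, chr12:16610967-16611216 on the minus strand for Lpin1 and chr2:173152823-173153072 on the plus strand for Pck1. Region coordinates are of the mm9 build, and positions were not converted between builds, so it was not checked that both use the same start site. RefSeq windows were found for 6 of the 9 genes, and Dgat1, Dgat2 and Gpd1 had no entry. In Lpin1 the capitals mark AGGTCA, the hexamer that nuclear receptors bind, 74 to 69 bases before the start. It occurs in 14.0% of 32851 promoter windows of this length. In Pck1 they mark TTACGTCA, the cyclic AMP response element known from the rat promoter of this gene, 93 to 86 bases before the start, which occurs in 0.447% of windows. By their distances, the TLE3 regions, 230 bp long, were centred 0.335 kb upstream at Lpin1 and 0.226 kb upstream at Pck1. If both builds use the same start sites, both marked motifs lie outside these regions, between them and the start site. The other motifs searched were not found in the windows of these 3 genes. The direct repeat of AGGTCA with 1 base between, which holds AGGTCA within it, occurs in 0.0335% of windows. TTGCGCAA, a palindrome of C/EBP factors, occurs in 0.164%, and the looser TTNNGCAA, which contains it, in 9.56%. The nuclear factor I palindrome, TTGGC and GCCAA with NNNNN between, occurs in 0.0365%, and that of early B cell factors, TCCC and GGGA with NN between, in 0.779%.

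Of the 43 regions, 12 were listed in BAT, 36 in eWAT and 29 in iWAT. These were 27.9%, 83.7% and 67.4% of the 43, against 21.6%, 73.3% and 72.5% of all regions. Listing in all 3 depots applied to 8 regions, where 15.9% of all regions were, in exactly 2 to 18, where 35.7% were, and in exactly 1 to 17, where 48.4% were. Those listed in eWAT and iWAT without BAT numbered 17, where 33.1% of all regions were. Another 3 were listed in BAT alone, 10 in eWAT alone and 4 in iWAT alone, against 3.14%, 23.2% and 22.1% of all regions. The median region had 11.1 scaled reads in BAT, 38.0 in eWAT, 24.2 in iWAT and 1.30 in the input. Over all regions the medians were 8.30 in BAT, 26.5 in eWAT and 27.3 in iWAT, so BAT was low there too. BAT gave the lowest of the 3 TLE3 values at 35 of the 43 regions, and eWAT gave the highest at 29, iWAT at 11 and BAT at 3. These orders were not counted over all regions. Of the 31 regions not listed in BAT, 6 still reached 15 scaled reads there, and each of these was below 10 times the input. By annotation, 26 regions were intergenic, 12 intronic, 3 at promoters, 1 in a 5′ untranslated exon and 1 at a gene end. The median distance from the start site was 9.73 kb, against 15.5 kb for all regions within 50 kb, and 5 of the 43 lay within 1 kb, where 5.3% of all regions within 50 kb did.

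**Figure D1:**
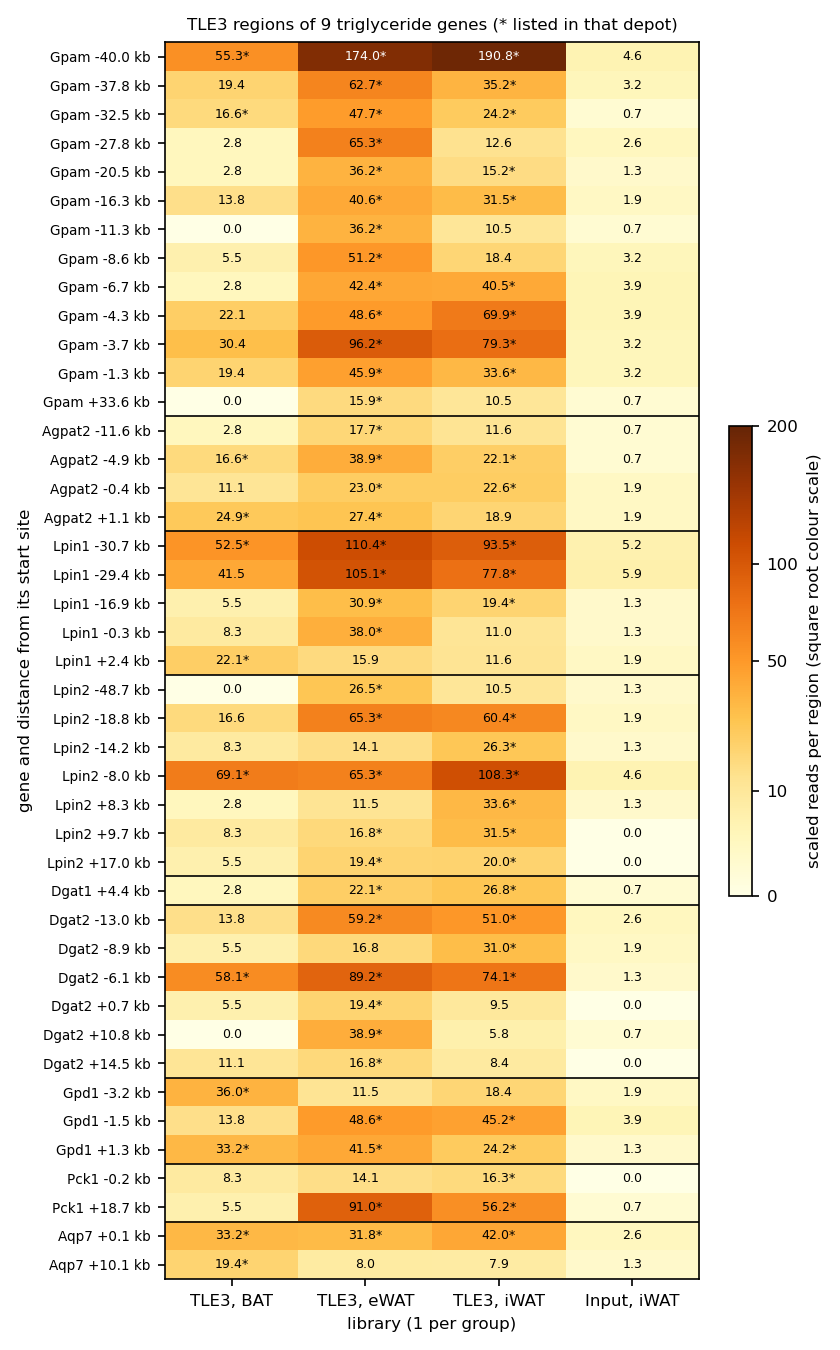
Scaled reads at each of the 43 regions (rows, by gene and distance from its start site in kb, negative upstream) in the 3 TLE3 libraries and the input (columns), on a square root colour scale, with an asterisk where the authors listed the region in that depot. The darkest row is the Gpam region 40.0 kb upstream, with 55.3, 174 and 191 scaled reads in BAT, eWAT and iWAT.

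Gpam, which encodes the mitochondrial acyltransferase that commits glycerol 3-phosphate to glycerolipids, held 13 of the 43 regions. As many or more were held by 0.919% of the 13381 genes with a region within 50 kb. Of the 13, 12 lay upstream, spread from 1.33 kb to 40.0 kb before the start site. All 13 were listed in eWAT, 9 in iWAT and 2 in BAT. The strongest region of all 9 genes was intergenic, 40.0 kb upstream, on chromosome 19 from 55213816 to 55214046. It had 55.3 scaled reads in BAT, 174 in eWAT, 191 in iWAT and 4.56 in the input, and ranked 621 among all regions by mean value. Next to the gene, the region 3.74 kb upstream, from 55177565 to 55177795, had 30.4 in BAT, 96.3 in eWAT, 79.4 in iWAT and 3.25 in the input. Its BAT value was just short of 10 times the input, and it was listed in eWAT and iWAT. At 11 of the 13 regions the scaled value was higher in eWAT than in iWAT, and at all 13 BAT was the lowest. Most regions of the joined lists also had fewer scaled reads in BAT. After centring, BAT over eWAT was below 0 at 11 of the 13 and BAT over iWAT at 8, and eWAT over iWAT was above 0 at 10. Over all regions the medians of these ratios were −0.27, −0.36 and −0.04, and the shares above or below 0 were not counted.

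Neighbouring Gpam regions differed between the libraries. The strongest region listed in eWAT alone, 27.8 kb upstream from 55201637 to 55201867, had 2.77 scaled reads in BAT, 65.4 in eWAT, 12.6 in iWAT and 2.60 in the input. Its centred log2 ratio was 2.16 (1.56 to 2.97) for eWAT over iWAT. At 11.3 kb upstream a region had 0 in BAT, 36.2 in eWAT and 10.5 in iWAT, which makes BAT at least 1.67-fold lower than eWAT after centring, taking 3 reads for BAT. The regions 8.64 kb and 20.5 kb upstream also passed 2-fold for eWAT over iWAT, at 1.30 and 1.07. The region 4.33 kb upstream ran the other way, at 22.1 for BAT, 48.6 for eWAT and 69.9 for iWAT, and its log2 ratio, eWAT over iWAT, was −0.65 (−1.14 to −0.19). At the strongest region that ratio was −0.26 (−0.52 to −0.01). Summed over the 13 regions, Gpam had 191 scaled reads in BAT, 763 in eWAT, 572 in iWAT and 33.2 in the input. The centred log2 ratio of the sums was −0.61 (−0.99 to −0.26) for BAT over eWAT and −0.16 (−0.54 to 0.19) for BAT over iWAT. The first of these was below 0 under all 5 scalings tried, from −1.99 to −0.34, though not always with its interval. For eWAT over iWAT it was 0.28 (0.15 to 0.41), and it stayed above 0 with its interval under all 5 scalings, but the direction did not hold with the strongest region alone, and within 10 kb it was 0.10 (−0.11 to 0.31).

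**Figure D2:**
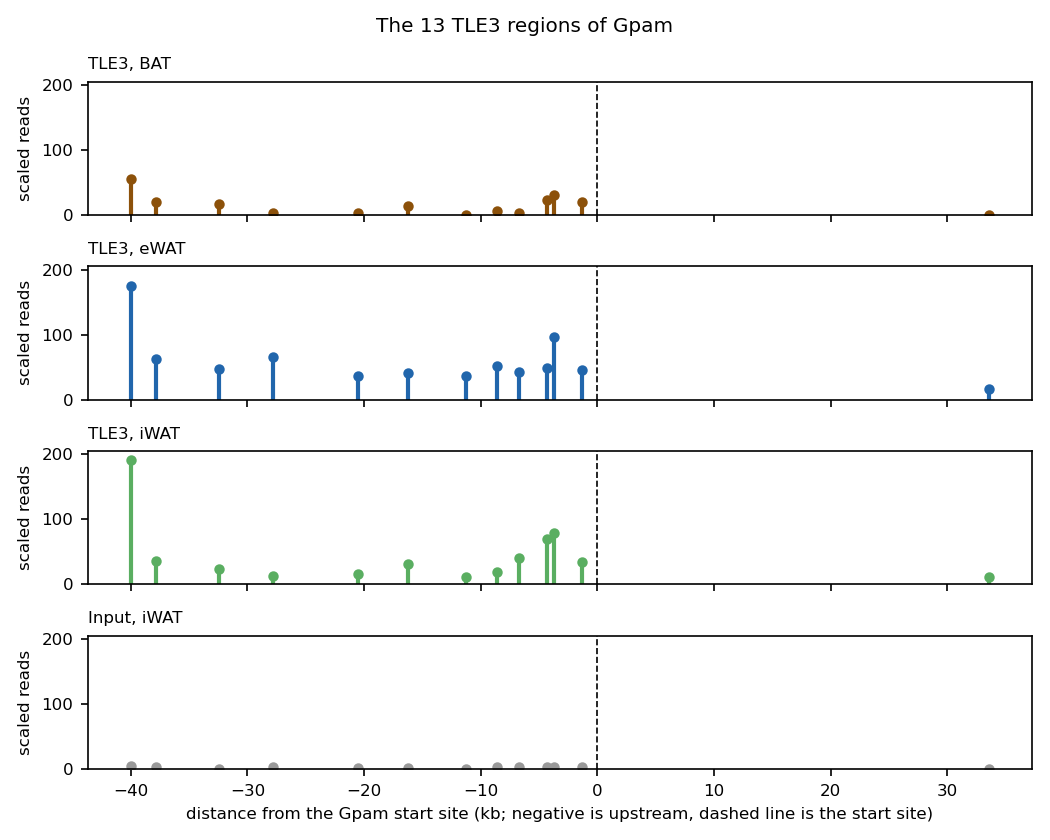
Scaled reads (y axis, same scale in each panel) of the 13 Gpam regions by distance from the Gpam start site in kb (x axis), with 1 panel for each TLE3 library and for the input. The peaks 40.0 kb and 3.74 kb upstream stand in all 3 TLE3 libraries, and the one 27.8 kb upstream is tall in eWAT, at 65.4, and low in BAT and iWAT, at 2.77 and 12.6.

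Agpat2, the acyltransferase of the second step, whose loss causes lipodystrophy in people, had 4 regions on chromosome 2 within 11.6 kb. Its strongest region, 4.88 kb upstream from 26464699 to 26464929 and intergenic, was listed in all 3 depots with 16.6 scaled reads in BAT, 38.9 in eWAT, 22.1 in iWAT and 0.65 in the input. The promoter region, 0.351 kb upstream from 26460173 to 26460403, had 11.1 in BAT, 23.0 in eWAT, 22.6 in iWAT and 1.95 in the input and was listed in both white depots. In the first intron, 1.07 kb downstream, a region from 26458755 to 26458985 had 24.9 in BAT, 27.4 in eWAT, 18.9 in iWAT and 1.95 in the input. This BAT value was close to the white values before centring and stood for 9 reads. The centred log2 ratio of BAT was 1.25 (−0.011 to 2.35) over eWAT and 1.80 (0.58 to 2.90) over iWAT. The gene sums were 55.3 for BAT, 107 for eWAT and 75.2 for iWAT. Their centred log2 ratio was 0.98 (0.22 to 1.66) for BAT over iWAT, which turned to −0.44 with the authors' scaling, and 0.37 (0.02 to 0.74) for eWAT over iWAT.

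Lipins dephosphorylate phosphatidic acid, and both lipin genes had their strongest reads away from the promoter. Lpin1, the main lipin gene of adipocytes, had 5 regions. A pair of them lay close together about 30 kb upstream on chromosome 12, from 16627159 to 16627389 and from 16625884 to 16626114. The farther one had 52.5 scaled reads in BAT, 110.4 in eWAT, 93.5 in iWAT and 5.21 in the input. The nearer one had 41.5, 105, 77.8 and 5.86 in the same order and was kept off the BAT list by its input. At the Lpin1 promoter, 0.335 kb upstream from 16596796 to 16597026, the values were 8.30 in BAT, 38.0 in eWAT, 11.0 in iWAT and 1.30 in the input. Here eWAT was the high library, the region was listed in eWAT alone, and the centred log2 ratio was 1.56 (0.87 to 2.48) for eWAT over iWAT. In the first intron, 2.37 kb downstream from 16594095 to 16594325, BAT was highest instead, with 22.1 scaled reads in BAT, 15.9 in eWAT, 11.6 in iWAT and 1.95 in the input. That region was listed in BAT alone and rested on 8 BAT reads. The Lpin1 sums were 130.0 for BAT, 300.2 for eWAT and 213 for iWAT, with 0.36 (0.15 to 0.57) for eWAT over iWAT. It was above 0 under all 5 scalings, but was 0.13 (−0.043 to 0.29) within 100 kb and 0.11 (−0.23 to 0.45) with the strongest region, where the interval included 0, and 1.09 (0.54 to 1.72) within 10 kb. For BAT over iWAT the value was 0.71 (0.24 to 1.14), but it was −0.71 with the authors' scaling and −0.063 when centred on the regions listed in all 3 depots.

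Lpin2, the paralog best known from liver, had 7 regions on chromosome 17. Its strongest region was annotated to the first intron and stood 8.02 kb upstream of the start site it was assigned to, an alternative one, from 71545855 to 71546085. It had 69.1 scaled reads in BAT, 65.4 in eWAT, 108 in iWAT and 4.56 in the input and was listed in all 3 depots. The centred log2 ratio was 1.46 (0.75 to 2.14) for BAT over eWAT and −0.85 (−1.26 to −0.47) for eWAT over iWAT. Also intronic, the region 8.26 kb downstream from 71541460 to 71541690 had 2.77 in BAT, 11.5 in eWAT, 33.6 in iWAT and 1.30 in the input, with −1.60 (−2.67 to −0.81) for eWAT over iWAT. Of the 7 regions, 6 had a centred eWAT over iWAT ratio below 0, where the median over all regions was −0.04. The exception was the intergenic region 48.7 kb upstream, listed in eWAT alone. Summed, Lpin2 had 111 for BAT, 219 for eWAT and 291 for iWAT, and the log2 ratio for eWAT over iWAT was −0.54 (−0.76 to −0.32). It was the only 1 of the 9 genes whose interval for that comparison lay below 0, and it did so under all 5 scalings.

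The 2 acyltransferases that complete the triglyceride differed in how much TLE3 signal they carried. Dgat1 had 1 region, in its first intron 4.36 kb downstream on chromosome 15 from 76337778 to 76338008. It had 2.77 scaled reads in BAT, which is 1 read, 22.1 in eWAT, 26.8 in iWAT and 0.65 in the input. Its log2 ratio for BAT over eWAT was −1.23 with an interval from −6.97 to 1.00, so that no difference was detectable at this depth. Dgat2, whose enzyme is known for esterifying newly made fatty acids, had 6 regions on chromosome 7. The strongest, 6.12 kb upstream from 106337225 to 106337455, had 58.1 in BAT, 89.2 in eWAT, 74.1 in iWAT and 1.30 in the input and was listed in all 3 depots. Its BAT over iWAT ratio of 1.07 (0.33 to 1.74) was past 2-fold after centring, although the scaled value was lower in BAT than in iWAT. Within the first intron, the region 0.74 kb downstream from 106330368 to 106330598 had 5.53 in BAT, 19.4 in eWAT, 9.46 in iWAT and 0 in the input. A second region of that intron, 10.8 kb downstream from 106320324 to 106320554, was seen in eWAT, with 0 in BAT, 38.9 in eWAT, 5.78 in iWAT and 0.65 in the input. The eWAT over iWAT ratio there was 2.43 (1.64 to 3.72), the highest of the 43 regions. Upstream by 8.92 kb, from 106340025 to 106340255, lay the strongest region listed in iWAT alone by the mean of the 3 TLE3 libraries, with 5.53 in BAT, 16.8 in eWAT, 31.0 in iWAT and 1.95 in the input. The sums of Dgat2 were 94.0 for BAT, 240.2 for eWAT and 180 for iWAT. The interval of the eWAT over iWAT ratio, 0.29 (0.05 to 0.52), was just above 0. It was 0.13 (−0.25 to 0.52) with the strongest region, and within 10 kb of the start site the value was −0.00087.

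Gpd1, which reduces dihydroxyacetone phosphate to glycerol 3-phosphate, had 3 regions within 3.18 kb of its start site on chromosome 15. The strongest region listed in BAT alone was among them, at a neighbouring gene end 3.18 kb upstream from 99544725 to 99544955, with 36.0 scaled reads in BAT, 11.5 in eWAT, 18.4 in iWAT and 1.95 in the input. The centred log2 ratio there was 2.95 (1.80 to 4.26) for BAT over eWAT and 2.35 (1.34 to 3.34) for BAT over iWAT. Between it and the gene lay a region 1.52 kb upstream from 99546393 to 99546623. Its scaled reads were 13.8 in BAT, 48.6 in eWAT, 45.2 in iWAT and 3.90 in the input. After centring its log2 ratio was −0.36 (−2.11 to 0.88) for BAT over eWAT and −0.22 (−1.95 to 0.99) for BAT over iWAT. Both intervals included 0, and BAT rested on 5 reads. In the second intron, from 99549177 to 99549407, a region listed in all 3 depots had 33.2 in BAT, 41.5 in eWAT, 24.2 in iWAT and 1.30 in the input. The Gpd1 sums were 83.0 in BAT, 102 in eWAT, 87.8 in iWAT and 7.15 in the input. Their centred log2 ratio was 1.09 (0.46 to 1.68) for BAT over eWAT and 1.34 (0.73 to 1.91) for BAT over iWAT, while the authors' scaling gave −0.29 and −0.080.

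Pck1, the gene of the rate-limiting enzyme of glyceroneogenesis and a direct PPARγ target in fat, had 2 regions on chromosome 2. The promoter region, 0.226 kb upstream from 172978233 to 172978463, was weak, with 8.30 scaled reads in BAT, 14.1 in eWAT, 16.3 in iWAT and 0 in the input, and was listed in iWAT alone. The region 18.7 kb downstream, from 172997134 to 172997364, had 5.53 in BAT, 91.0 in eWAT, 56.2 in iWAT and 0.65 in the input. Here both white libraries were high and BAT rested on 2 reads. Its log2 ratio was −2.43 (−5.72 to −0.77) for BAT over eWAT and 0.55 (0.16 to 0.97) for eWAT over iWAT. By sums, Pck1 had 13.8 for BAT, 105 for eWAT and 72.5 for iWAT, and its BAT over eWAT ratio of −1.46 (−3.19 to −0.28) was the only 1 of the BAT ratios of the 9 genes whose interval lay on one side of 0 under all 5 scalings. That direction rested on the downstream region and on the assignment of regions to the nearest gene. With all 5 regions within 50 kb of the Pck1 start site the ratio was 0.73.

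Aqp7, the glycerol channel, had 2 regions on chromosome 4 and the highest BAT over eWAT ratio of the 9 genes. The region in the first exon, annotated as 5′ untranslated and 0.12 kb from the start site, from 40994934 to 40995164, was listed in all 3 depots. It had 33.2 scaled reads in BAT, 31.8 in eWAT, 42.0 in iWAT and 2.60 in the input, so that the 3 TLE3 libraries lay close together before centring. The region in intron 3, 10.1 kb downstream from 40984998 to 40985228, was listed in BAT alone, with 19.4 in BAT, 7.95 in eWAT, 7.88 in iWAT and 1.30 in the input. Summed, Aqp7 had 52.5 in BAT, 39.7 in eWAT, 49.9 in iWAT and 3.90 in the input. The log2 ratio was 1.78 (0.93 to 2.59) for BAT over eWAT and 1.49 (0.70 to 2.21) for BAT over iWAT. The authors' scaling left 0.39 (−0.45 to 1.21) and 0.072 (−0.72 to 0.79), where both intervals included 0. The BAT sum rested on 19 reads.

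**Figure D3:**
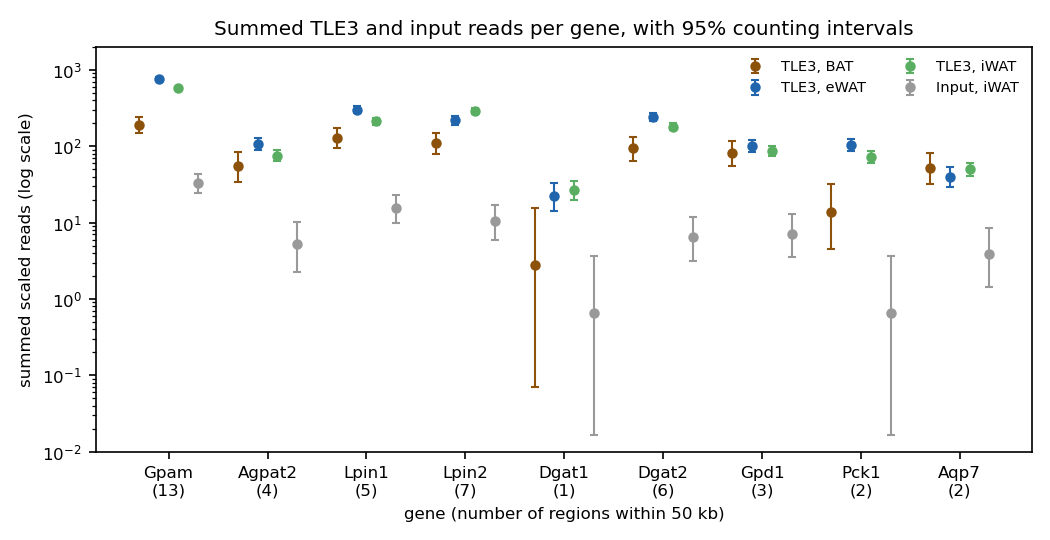
Summed scaled reads per gene (y axis, log scale) for the 9 genes (x axis, number of regions in brackets) in the 3 TLE3 libraries and the input, where points are sums and bars 95% exact counting intervals. Gpam is highest in each TLE3 library, with 191, 763 and 572 in BAT, eWAT and iWAT, and Dgat1 is lowest.

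Counted over regions, BAT was past 2-fold higher than eWAT at 7 of the 43 regions and lower at 10, where 18.5% and 32.6% of all regions were, or 51.1% in either direction. Against iWAT, BAT was higher at 10 and lower at 8, where 16.9% and 34% of all regions were, or 50.9% in either direction. With the authors' scaling these splits were 2 higher and 30 lower against eWAT, and 1 higher and 24 lower against iWAT. All regions counted as lower in BAT rested on 0 to 2 BAT reads, in both comparisons. For eWAT over iWAT, 7 regions were higher and 2 lower, against 15.9% and 23.8% of all regions, or 39.7% in either direction. The 3 comparisons share libraries and are not independent of each other. Median centred log2 ratios over the 43 regions were −0.25, −0.13 and 0.23 for BAT over eWAT, BAT over iWAT and eWAT over iWAT, beside −0.27, −0.36 and −0.04 over all regions. An exact binomial test on the recovered reads, two-sided with Benjamini-Hochberg adjustment over all regions, compares these libraries and not the depots. At an adjusted p of 0.05 it called 3 regions higher and 2 lower for BAT over eWAT, where 7.62% and 3.47% of all regions were called. For BAT over iWAT it called 6 higher and 0 lower, against 8.27% and 3.46%, and for eWAT over iWAT 10 higher and 6 lower, against 22.4% and 29.2%. Called higher in BAT than in eWAT were Lpin2 8.02 kb upstream, Gpd1 3.18 kb upstream and Aqp7 10.1 kb downstream. Called lower were Gpam 27.8 kb upstream and Pck1 18.7 kb downstream. The Gpd1 and Aqp7 regions were listed in BAT alone and the Gpam region in eWAT alone. Their directions were thus in part fixed by the choice of regions. The Lpin2 region had 69.1 scaled reads in BAT and 65.4 in eWAT before centring. Called higher in BAT than in iWAT were the same Gpd1 and Aqp7 regions and Gpd1 1.27 kb downstream. The others were Agpat2 1.07 kb and Lpin1 2.37 kb downstream and Dgat2 6.12 kb upstream. The Lpin1 region was also listed in BAT alone. By the exact binomial test, the adjusted p was 0.044 at Agpat2 and 0.045 at Dgat2, close to the limit. Before centring, the Dgat2 region had 58.1 scaled reads in BAT and 74.1 in iWAT. The test used the centring on the strongest 25% of regions, and whether its calls hold with another centring was not tested.

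The regions were also split by distance from the start site, at 10 kb. Within 10 kb, 8 of 22 regions (36.4%) were listed in BAT, against 22.5% of all regions at that distance, and the median centred log2 ratio for BAT over eWAT was 0.24. From 10 to 50 kb, 4 of 21 (19.0%) were listed in BAT, close to the 21.6% of all regions there, and the median was −0.53. Over all regions of the joined lists the medians at the same distances were −0.31 and −0.32, and another centring moves all 4 of these medians by the same amount. For eWAT over iWAT the medians of the 9 genes' regions were −0.05 within 10 kb and 0.44 beyond it, beside 0.15 and 0.02 over all regions. Of the 21 farther regions, 8 belonged to Gpam and 13 to other genes, and no test of the split was made.

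Over gene sums, 2 genes were past 2-fold higher and 2 lower for BAT over eWAT, where 12.5% and 26.6% of all genes were, and 2 higher and 1 lower for BAT over iWAT, where 14.9% and 23.2% were. Gpd1 and Aqp7 were the higher ones in both, and of them Gpd1 was below 0 with the authors' scaling. The lower ones were Dgat1 and Pck1 over eWAT and Dgat1 over iWAT, where Dgat1 rested on 1 BAT read. The interval for BAT over eWAT lay above 0 at Gpd1 and Aqp7 and below 0 at Gpam and Pck1, where it lay above at 14.4% and below at 17.7% of all genes. For BAT over iWAT it lay above 0 at 4 genes, Agpat2, Lpin1, Gpd1 and Aqp7, and below at 0, against 18.2% and 14.2%. Of these 4, Aqp7 alone was above 0 with the authors' scaling, at 0.072 (−0.72 to 0.79), an interval that included 0. For eWAT over iWAT the interval lay above 0 at 5 genes, Gpam, Agpat2, Lpin1, Dgat2 and Pck1, and below at 1, Lpin2, against 30.5% and 27.3%. Centred on the median gene, the intervals of Agpat2 (−0.050 to 0.67), Dgat2 (−0.013 to 0.46) and Pck1 (−0.027 to 0.70) included 0. The interval shares of all genes are not matched for reads, and more reads narrow an interval. The 9 genes held 43 regions, where the median gene with a region held 2. The eWAT over iWAT ratio of each of the 9 genes was within 2-fold (0 higher, 0 lower), where 11.9% of genes were past 2-fold higher and 12% lower. The median gene ratio of the 9 was 0.18, 0.49 and 0.28 in the 3 comparisons, beside −0.22, −0.11 and 0.07 over all 13381 genes with a region.

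**Figure D4:**
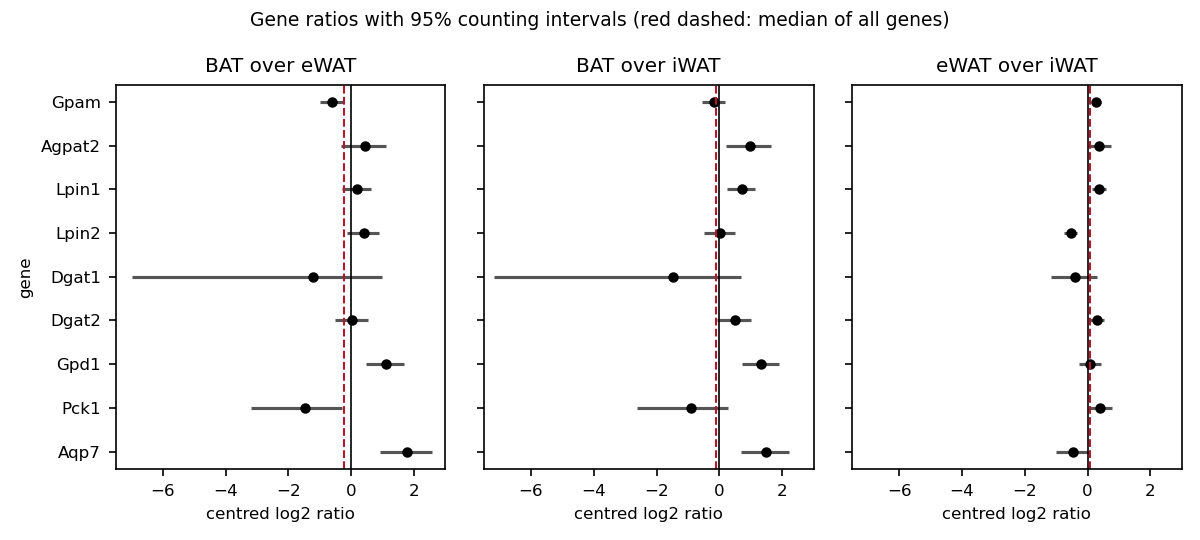
Centred log2 ratios of the gene sums (x axis) for the 9 genes (y axis) in the 3 comparisons, where points are ratios, lines 95% exact counting intervals and the red dashed line the median of all genes. Gpd1 and Aqp7 lie right of 0 with their whole intervals in both BAT comparisons, at 1.09 and 1.78 over eWAT. Lpin2 lies left of 0 with its whole interval for eWAT over iWAT, at −0.54.

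Among 22 other genes of the pathway, 18 had a region within 50 kb, and 12 had one listed in BAT, 18 in eWAT and 17 in iWAT. Of all genes with a region, 41.9% had one listed in BAT, 89% in eWAT and 82.6% in iWAT, but these 18 genes held 94 regions, where the median gene held 2. Gpat2, Agpat1, Lpin3 and Plpp2 had none. The largest sum was that of Gpat3, named Agpat9 in the files and a glycerol 3-phosphate acyltransferase of the endoplasmic reticulum, at 395 for BAT, 569 for eWAT and 589.6 for iWAT over 9 regions. Its centred BAT over eWAT ratio was 0.86 (0.59 to 1.12), while its scaled sum was lower in BAT than in eWAT, and the centred ratio of Gpam, the mitochondrial enzyme of the same step, was −0.61. Pcx, which makes oxaloacetate for glyceroneogenesis, had 210.2 for BAT, 451 for eWAT and 452 for iWAT. Plpp1, a lipid phosphate phosphatase, had 113 for BAT, 469.8 for eWAT and 474 for iWAT and, like Gpam, an interval below 0 for BAT over eWAT, at −0.66 (−1.16 to −0.21). Pdk4, a kinase that spares pyruvate from oxidation, had 218 for BAT, 367 for eWAT and 334 for iWAT, with a centred 0.64 (0.27 to 0.98) for BAT over eWAT. After centring, sums past 2-fold were higher in BAT than in eWAT at 3 of the 18 genes, Aqp3, Pck2 and Gpd2. They were lower at 1, Aqp9. Of all genes with a region, 12.5% were higher and 26.6% lower. These 4 also passed for BAT over iWAT, where 14.9% of all genes were higher and 23.2% lower. Before centring, the sums of Pck2 and Gpd2 were lower in BAT than in eWAT, and that of Aqp3 was higher. No other centring was applied to the 18 genes, so it was not tested whether these calls depend on it. Gpd2, the mitochondrial glycerol 3-phosphate dehydrogenase, had 36.0 for BAT, 41.5 for eWAT and 21.6 for iWAT from 1 region. Pck2, the mitochondrial carboxykinase, had 33.2 for BAT, 43.3 for eWAT and 29.4 for iWAT, also from 1 region. Its BAT over eWAT interval, −0.047 to 1.93, included 0. Aqp9, a glycerol channel best known from liver, had 11.1 for BAT, from 4 reads, 83.0 for eWAT and 92.5 for iWAT. For eWAT over iWAT, 0 were higher and 1 was lower, the acyltransferase gene Agpat5, at −1.32 (−1.68 to −0.99). Of all genes with a region, 11.9% were higher and 12% lower.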

How the data were processed

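TLE3 ChIP-seq regions from 3 adipocyte libraries and 1 iWAT input library were analysed. Per the submitters' processing notes, the tools included STAR and HOMER and the build was mm9. Their versions and the peak calling settings are not given in the sources used here. The deposited values were a signal, reads per region of 230 bp that the authors brought to a common library total, per the file headers. The deposited peak score was 0 throughout and was not used. Absolute depth is unknown, because the files do not state that total, and 1 read was worth 2.77 scaled reads in BAT, 0.883 in eWAT, 0.526 in iWAT and 0.651 in the input.

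The 3 lists, 116513 lines, were joined by region name with duplicates dropped. Reads were recovered from the step between values, and 100% came out whole within 0.1 read. Where a library's own list held no low values, its step came from the other lists. Log2 ratios used a pseudocount of 1 scaled read and were centred on the strongest 25% of regions by mean. Intervals are exact Clopper-Pearson intervals on reads without a pseudocount, at 95%, and exact Poisson intervals for sums in the plot. PCR reads without molecular identifiers are not independent molecules, so intervals and limits cover counting error only. Calls were 2-fold, and a count test was run as an alternative. Each gene's strongest region, regions past 2-fold whose mean reached 30 scaled reads, those within 1 kb and the strongest listed in 1 depot alone were named, and others were chosen after their values were seen. Members and lists were chosen with earlier results of these data known. TTACGTCA was added to the motifs afterwards. Scripts were tested on simulated reads. Python 3.11.15, numpy 2.4.6, pandas 2.3.3 and scipy 1.17.1 were used.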

Additional observations from a re-analysis of the deposited data

How the results depend on the processing

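With 1 library per depot, no replicate could be left out. No paired analysis was possible because each group has 1 library and no replicate numbers in the labels. Settings without Gpam and with regions of any nearest gene were chosen after seeing the data. Depth limits BAT most, since a listed region could rest on 6 reads there, against 17 in eWAT and 29 in iWAT.

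Regions past 2-fold numbered 17 for BAT over eWAT, 18 for BAT over iWAT and 9 for eWAT over iWAT, the order kept below. With the authors' scaling BAT over eWAT gave 32 (2 higher, 30 lower) and BAT over iWAT 25 (1 and 24). Centred on the regions listed in all 3 depots, they gave 20 (3 and 17) and 23 (6 and 17), and centred on all regions 18 (9 and 9) and 21 (14 and 7). Within 10 kb, where 22 of the 43 regions remain, the 3 comparisons gave 9, 11 and 4, and among the 15 regions whose mean reached 30 scaled reads, 4, 4 and 0. A pseudocount of 5 gave 10 for BAT over iWAT, and the exact binomial test gave 5, 6 and 16. Within 100 kb the splits were 9 and 10, 10 and 11, and 7 and 5.

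Summed over all 9 genes, the log2 ratios of the same comparisons were 0.01, 0.32 and 0.14. Within 10 kb they were 0.49, 0.58 and −0.081, with the authors' scaling −1.37, −1.10 and 0.28, and without Gpam 0.32, 0.54 and 0.058. Centring on the regions listed in all 3 depots gave −0.65 and −0.45 in the BAT comparisons with eWAT and iWAT. BAT over eWAT was 0.23 when centred on the median gene, and with the strongest region of each gene it was 0.26, where eWAT over iWAT was −0.10. The causes were not tested beyond what each setting changes by construction.

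Of 189 single gene ratios under alternatives, 30 turned in sign. Of these, 18 had an interval that included 0 to begin with. With the authors' scaling and with centring on the regions listed in all 3 depots these were Agpat2, Lpin1, Lpin2 and Dgat2 for BAT over eWAT, at −1.34 to −0.94 and −0.62 to −0.21, and Lpin2 and Dgat2 for BAT over iWAT. Pck1 for BAT over iWAT turned to 0.52 within 10 kb and 1.36 with regions of any nearest gene. The last 4 were Lpin1 within 100 kb and Dgat2 with any nearest gene for BAT over eWAT, and for eWAT over iWAT Gpd1 with the strongest region and Aqp7 with any nearest gene, at 0.32. The other 12 had an interval on one side of 0. With the authors' scaling Gpd1 was at −0.29 for BAT over eWAT. For BAT over iWAT, Agpat2 was at −0.44, Lpin1 at −0.71 and Gpd1 at −0.080. Lpin1 was at −0.063 for BAT over iWAT when centred on the regions listed in all 3 depots. With the strongest region, Gpd1 was at −0.36 and −0.22 over eWAT and iWAT, and Gpam at −0.26 for eWAT over iWAT. Within 10 kb, Pck1 was at 0.68 for BAT over eWAT and −0.32 for eWAT over iWAT, and Dgat2 at −0.00087 for eWAT over iWAT. With regions of any nearest gene, Pck1 was at 0.73 for BAT over eWAT. Without a turn in sign, intervals for eWAT over iWAT came to include 0 for Agpat2, Dgat2 and Pck1 when centred on the median gene, for Gpam and Agpat2 within 10 kb, for Lpin1 within 100 kb, and for Lpin1 and Dgat2 with the strongest region. For BAT over eWAT this befell Gpam within 10 kb and with the strongest region, and Aqp7 with the authors' scaling. Gpd1 joined them with any nearest gene and when centred on the regions listed in all 3 depots. For BAT over iWAT that centring did so for Agpat2, Gpd1 and Aqp7. The strongest region did so for Agpat2 and Lpin1, the 100 kb window for Lpin1 and the authors' scaling for Aqp7.

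Listed regions numbered 12 in BAT, 36 in eWAT and 29 in iWAT. At 30 scaled reads or more there were 7 in BAT and 19 in iWAT, and at 20 times the input or more 4 in BAT and 14 in iWAT. Within 10 kb there were 17 in eWAT and 16 in iWAT. In all 3 depots there were 8, also by overlap, and 4 with equal-sized lists.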

Other observations

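Around Pck1, 3 further regions lay within 50 kb of its start site but were nearer to that of Ctcflos, a noncoding gene, and they were singled out after their values were seen. The strongest was intergenic, 14.6 kb upstream of Pck1 at positions 172963877 to 172964107 of chromosome 2, with values of 108 for BAT, 75.9 for eWAT, 31.5 for iWAT and 0 for the input. It was listed in all 3 depots, and BAT was the highest library there even on the authors' scaling. Its centred log2 ratio was 1.88 over eWAT and 3.16 over iWAT for BAT, opposite to the −2.43 and −1.71 of the Pck1 region 18.7 kb downstream. All 5 regions around Pck1 summed to 169 for BAT, 266 for eWAT, 176 for iWAT and 4.55 for the input.

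Aqp3, a second glycerol channel gene next to Aqp7, had 49.8 for BAT, 46.8 for eWAT and 55.2 for iWAT over 2 regions. The centred log2 ratio of these sums was 1.47 (0.61 to 2.27) for BAT over eWAT, beside 1.78 for Aqp7. The nearest start site rule left out, besides the 3 near Pck1, 7 regions around Agpat2, 4 around Dgat2, 2 each around Gpd1 and Aqp7 and 1 at Gpam, which stood nearer to other genes.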
